A study of Xenopus laevis with 24 samples.

Results

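The ventral marginal zone (VMZ) of the *Xenopus laevis* gastrula was compared with the animal cap at stage 11 by RNA sequencing of explants. The comparison rests on 4 of the 24 libraries of the series, taken by their labels: VMZ replicates 1 and 2 and animal cap replicates 1 and 2. The VMZ is the ventral part of the equatorial belt, from which ventral and posterior mesoderm arises. The animal cap is the roof of the blastocoel, which left to itself becomes epidermis. Per the labels, embryos were kept at 16 °C, 5 VMZ pieces per library were taken at stage 10.5 and 20 caps at stage 8, and both were collected at stage 11. Each library is therefore a pool of explants, and the tissue difference cannot be told apart from the differences in cutting stage, time in isolation and explant number. No strain, genotype or added agent is named for any group. The labels do not say whether replicates 1 and 2 came from separate clutches, so p-values measure the spread between these samples, which may be technical. The other 20 libraries come from dorsal marginal zone (DMZ) explants of 10 stages, cut at stage 10.5 like the VMZ. Their explant number is not given here. These libraries entered the fit, where they set most of the estimated spread, and those of stage 11 are given beside the others.

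In the blastula, vegetal cells release Nodal ligands that induce mesoderm in the marginal zone, and fibroblast growth factor (FGF) signals maintain it through Brachyury and other T-box factors. Away from the dorsal organizer, zygotic Wnt8 and bone morphogenetic proteins (BMPs) give the belt ventral and posterior identity, with Cdx and Hox genes among the posterior targets. In the animal cap, BMP signalling turns on epidermal regulators such as Foxi, Tfap2, Grhl and Gata factors. *X. laevis* is allotetraploid, so many genes have an L and an S copy (homeologs). These were counted as separate gene models, and how reads were divided between near-identical copies is uncertain.

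The VMZ libraries held 30961980 and 39827863 counts and the cap libraries 27077639 and 28669047, and DMZ replicate 2 of stage 11 held 7375650. Same-numbered libraries were closer to each other than libraries of one tissue: the Pearson correlation of log CPM across gene models, which are not independent replicates, was 0.969 and 0.972 between the VMZ and cap libraries of replicates 1 and 2, against 0.956 between the VMZ libraries and 0.958 between the cap libraries. The 10 defining mesoderm gene models (*t*, *vegt*, *msgn1*, *wnt8a* and *myf5*) summed to 1847 and 815 CPM (counts scaled to TMM library size) in VMZ replicates 1 and 2 and to 22.3 and 40.5 in the cap. The 12 defining ectoderm models (*foxi4.2*, *foxi2*, *grhl1*, *grhl3*, *tfap2a* and *krt12*) summed to 2003 and 2040 CPM in the VMZ, below the 4445 and 3645 of the cap but far from absent, with 0 called. The *foxi2* models did not follow that sum, at 4.86 and 23.4 CPM in the VMZ and 4.68 and 11.5 in the cap for *foxi2.L* and at 5.57 and 13.7 against 5.44 and 4.12 for *foxi2.S*, and neither was called (adjusted p = 0.787 and 0.419 by edgeR). Of endoderm, 6 *sox17* and *mixer* models reached 209 and 82.1 CPM in the VMZ and 4.82 and 14.9 in the cap. The 7 dorsal models (*chrd*, *gsc*, *nog* and *otx2*) stood at 7.23 and 4.14 CPM in the VMZ, 24.3 and 12.4 in the cap and 405 and 702 in the DMZ. Between VMZ and cap, 7 of the 10 mesoderm and 2 of the 6 endoderm models were called higher, and 0 of the 7 dorsal ones were called. The 6 ventral models (*szl*, *ventx1.2* and *ventx2.1*) summed to 525 and 359 CPM in the VMZ and to more, 751 and 809, in the cap, with 0 called, and to 245 and 207 in the DMZ. The *szl* and *ventx2.1* models were below the cap, but the *ventx1.2* models did not follow the sum. *ventx1.2.S* was at 87.2 and 57.8 CPM in the VMZ and 35.8 and 40.1 in the cap, and *ventx1.2.L* overlapped. The VMZ thus carried mesodermal markers and the cap ectodermal ones, with ectodermal transcripts also in the VMZ and traces of mesodermal ones in the cap. The ventral sum was higher in the cap, but the *ventx1.2* models were not. In bulk libraries, fewer cells of a type and less RNA per cell cannot be told apart.

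Among 31349 gene models tested, 504 were higher in the VMZ (1.61%) and 363 lower (1.16%) at an adjusted p under 0.05. Here and below, p-values are from edgeR's quasi-likelihood test, adjusted over all tested models by the Benjamini-Hochberg method, with the replicate number as a block, and log2 fold changes are VMZ over cap ± SE. At least 2-fold differences made up 396 of the higher and 260 of the lower calls. The libraries of the tissues did not overlap for 843 of the 867 called models. Of all 31349 tested models, both VMZ libraries lay above both cap libraries in 5791 and below them in 4646. Lack of overlap was thus not confined to called models. The median log2 fold change of all tested models was 0.03. Library choice mattered: leaving out VMZ replicate 1 gave 767 higher and 399 lower calls, VMZ replicate 2 gave 435 and 117, cap replicate 1 gave 196 and 112, and cap replicate 2 gave 193 and 240. Without the block 226 were higher and 98 lower, and a fit of only the 4 VMZ and cap libraries gave 766 and 920. Under that fit 45.4% of calls were higher, against 58.1% in the main fit and 43.3% with upper quartile scaling. That scaling moved the median of all models to -0.07. The fit of 4 libraries, and that of the 6 of stage 11 used below, keep far fewer residual degrees of freedom than the main fit. Their p-values lean on spread pooled over gene models, so a smaller p there is not better evidence.

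**Figure D1:**
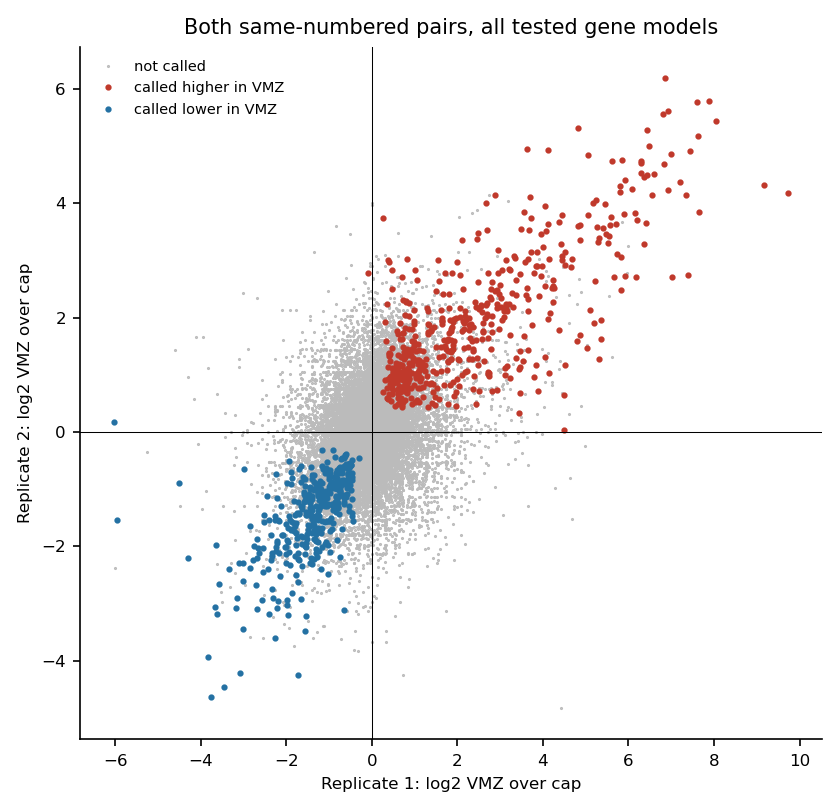
Log2 CPM of the VMZ over that of the cap in replicate 1 (x axis) and replicate 2 (y axis) for the 31349 tested gene models. Red points are the 504 models called higher in the VMZ and blue points the 363 called lower, which lie mostly at the upper right and lower left.

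The gene lists differed in their share of called members. Mesoderm regulators, endoderm and Mix/Bix genes, and the FGF pathway had 37.3%, 40% and 40% of their tested members higher in the VMZ, beside 1.61% of all models. With only the 6 libraries of stage 11, in the same order, 3 of 47, 2 of 35 and 12 of 47 were higher. The lists were chosen with earlier results of these data known, so the contrast with all models is a description and no test. The 124 ribosomal protein models had 0 called either way (0 higher and 3 lower with DESeq2). The lists of ectodermal regulators, keratins and BMP genes had few calls in the fit of 24 libraries and many lower calls in the fit of 4.

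**Figure D2:**
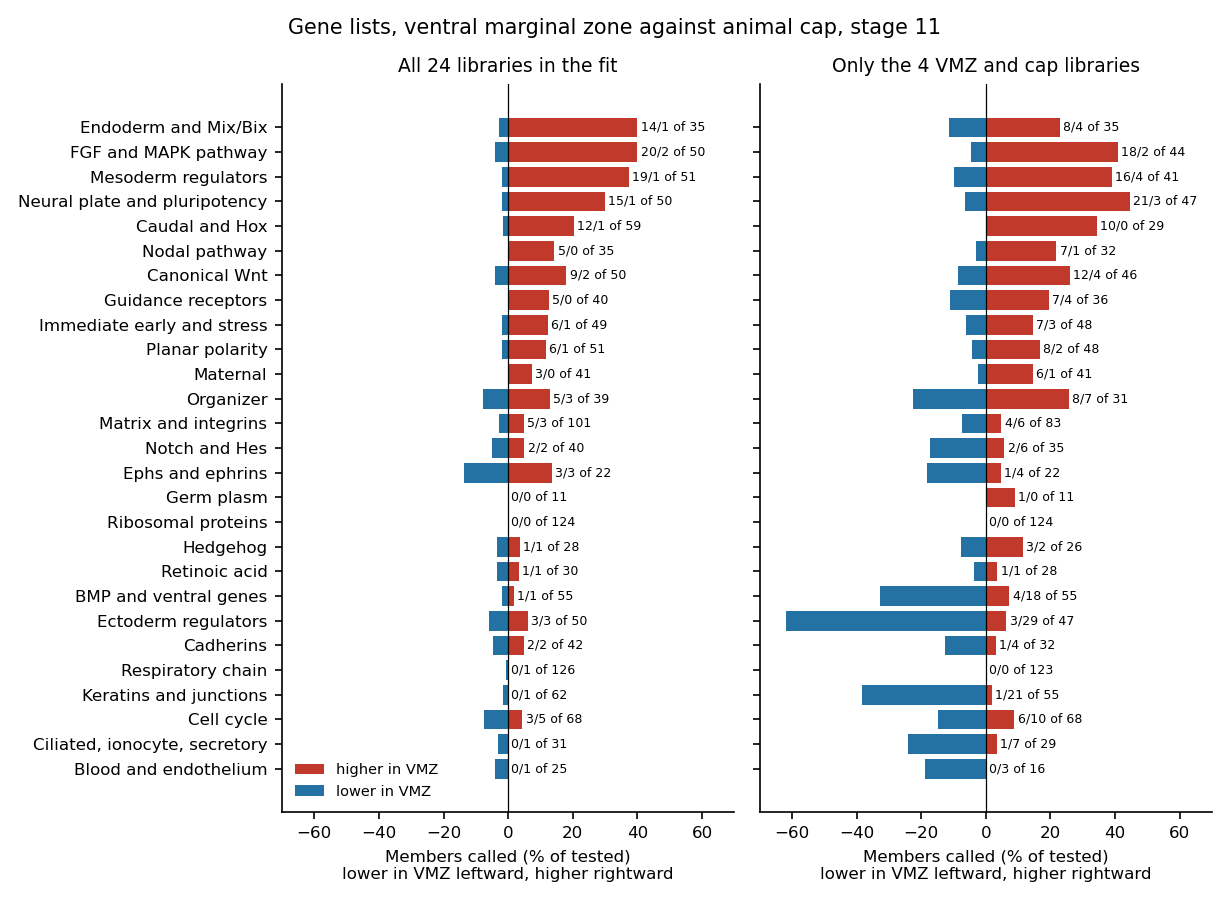
Percentage of tested members called higher (red, rightward) and lower (blue, leftward) in the VMZ for each of 27 gene lists, with counts written as higher/lower of tested, in the fit of all 24 libraries (left) and of only the 4 VMZ and cap libraries (right). Mesoderm regulators show 19/1 of 51 on the left and 16/4 of 41 on the right, and ectoderm regulators 3/3 of 50 and 3/29 of 47.

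Of 51 models of mesodermal transcription factor genes, 19 were higher in the VMZ, 1 lower and 31 not called, with a median log2 fold change of 3.39. The shares were 37.3% higher and 1.96% lower, beside 1.61% and 1.16% of all models. *t.S*, a Brachyury gene, stood at 337 and 132 CPM in VMZ replicates 1 and 2 and 2.72 and 6.96 in the cap, a log2 fold change of 5.54 ± 0.53 (adjusted p = 6.72e-05). Its homeolog *t.L* was at 180.3 and 40.7 against 0.145 and 2.19 (6.31 ± 0.90, adjusted p = 0.00209). Both VMZ libraries lay above both cap libraries, replicate 1 was the higher of the VMZ pair, and replicate 2 the higher of the cap pair. The T-box gene *vegt.L* was at 399 and 238 CPM against 4.79 and 10.7 (5.51 ± 0.78, adjusted p = 0.0019). *eomes.S*, which encodes the T-box factor Eomesodermin, was at 25.6 and 27.8 against 0.617 and 1.61 (4.86 ± 0.53, adjusted p = 7.48e-05), almost equal in the VMZ libraries. *eomes.L* was also above the cap in both, at 20.0 and 28.3 against 5.22 and 7.37, without being called (adjusted p = 0.102, and 0.000654 in the fit of only the 4 libraries). *lhx1.L*, a LIM homeobox gene, was at 16.2 and 15.9 CPM against 0.87 and 1.22 (3.94 ± 0.40, adjusted p = 2.72e-05) and was higher still in the DMZ, at 31.1 and 68.2 (DMZ over VMZ 1.59 ± 0.33, adjusted p = 0.00826). *snai1.L*, a zinc finger repressor gene that marks early mesoderm, was at 39.5 and 15.4 CPM in the VMZ and 4.13 and 2.09 in the cap (3.14 ± 0.42, adjusted p = 0.000609).

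Some genes of paraxial and muscle mesoderm were near 0 in the cap. *msgn1.L*, which encodes the paraxial regulator Mesogenin, was at 38.2 and 5.11 CPM in the VMZ and 0 and 0.193 in the cap (7.62 ± 1.53, adjusted p = 0.0188), a spread of several-fold between the VMZ libraries. Its adjusted p was 0.0549 without VMZ replicate 1, 0.177 without cap replicate 1 and 0.103 without cap replicate 2. *myf5.L*, a myogenic regulator gene, was at 4.21 and 0.45 CPM against 0.109 and 0.0322 and was not called (adjusted p = 0.0983, and 0.0152 without VMZ replicate 2). Of 3 models named *t2.S*, the most abundant (gene1212) was at 38.4 and 7.54 CPM in the VMZ, 0.399 and 0.708 in the cap and 132 and 110.2 in the DMZ, so that the VMZ lay between the other regions (VMZ over cap 5.29 ± 0.64, adjusted p = 0.000464, and DMZ over VMZ 2.45 ± 0.49, adjusted p = 0.00889). For a further *t2.S* model (gene44007), with no count in the cap, the VMZ stood at least 7.62-fold higher than a floor set at 3 counts for the group, a bound that covers counting error only, as do the counting intervals given below. *foxf1.L*, the 1 lower member and a forkhead gene of lateral mesoderm, was at 3.29 and 1.4 CPM in the VMZ and 15.4 and 12.3 in the cap (-2.58 ± 0.64, adjusted p = 0.0423). Its call was lost without VMZ replicate 2 (adjusted p = 0.365), without cap replicate 1 (0.198) and 2 (0.0999), and without the block (0.0886).

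The number of mesoderm regulators called higher was 11, 27, 9 and 8 without VMZ replicates 1 and 2 and cap replicates 1 and 2, in that order. Between libraries of one tissue, replicate 2 over replicate 1 had a median log2 ratio over the list of -1.33 in the VMZ and 0.23 in the cap. In the fit of only the 4 libraries 16 were higher and 4 lower, and *t.L*, *t.S* and *vegt.L* were not called there (adjusted p = 0.396, 0.235 and 0.166), nor was gene1212 (0.157). With the 6 libraries of stage 11 the adjusted p was 0.249 for *t.L*, 0.15 for *t.S*, 0.0988 for *vegt.L*, 0.099 for *snai1.L* and 0.179 for gene1212, and 3 of the list were higher. *eomes.S* and *lhx1.L* were called in both.

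**Figure D3:**
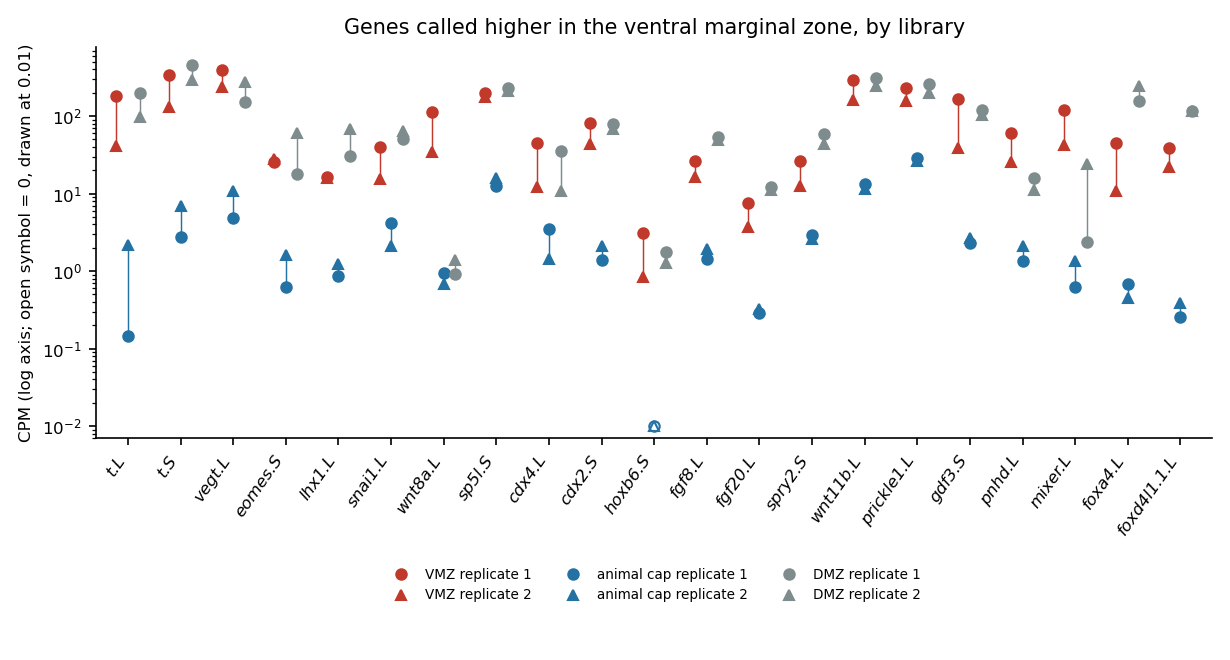
CPM on a log axis of 21 genes called higher in the VMZ, in VMZ (red), animal cap (blue) and DMZ (grey) libraries of stage 11, with circles for replicate 1, triangles for replicate 2 and open symbols for 0. Red points lie above blue ones for all 21, and for *wnt8a.L* the DMZ lies beside the cap, at 0.916 and 1.41 CPM against 113 and 34.9 in the VMZ.

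Canonical Wnt genes were led by the ligand. *wnt8a.L*, which encodes the ventrolateral Wnt ligand, stood at 113 and 34.9 CPM in the VMZ and 0.943 and 0.676 in the cap (6.42 ± 0.93, adjusted p = 0.00188), and *wnt8a.S* at 81.2 and 18.3 against 1.12 and 0.902 (5.61 ± 0.94, adjusted p = 0.00523). Both models were also far above the DMZ libraries, which were at 0.916 and 1.41 CPM for *wnt8a.L* and 0.543 and 1.15 for *wnt8a.S*. The call of *wnt8a.S* was lost without cap replicate 1 (adjusted p = 0.0804) or 2 (0.0746) and with the 6 stage 11 libraries (0.0838). Of the response side, *sp5l.S*, which encodes a zinc finger factor induced by Wnt signals, was at 197 and 179 CPM against 12.6 and 16.1 (3.71 ± 0.21, adjusted p = 4.78e-08) and *sp5l.L* at 265 and 234 against 30.1 and 29.1 (3.07 ± 0.19, adjusted p = 1.55e-07). Here the libraries of a tissue were close, and the DMZ stood at 228 and 213 CPM for *sp5l.S*, not called different from the VMZ (adjusted p = 0.48). The receptor gene *fzd10.L* was at 44.8 and 31.3 CPM against 9.79 and 7.21 (2.15 ± 0.15, adjusted p = 2.28e-07). *lef1.L*, which encodes a DNA-binding partner of beta-catenin, was at 39.7 and 15 against 4.03 and 2.74 in the cap and 14 and 10.2 in the DMZ (VMZ over cap 2.94 ± 0.33, adjusted p = 8.65e-05). In the other direction, *tcf7l1.S*, which encodes a Tcf factor that represses Wnt targets, was lower in the VMZ, at 88 and 106 CPM against 213 and 214 in the cap and 211 and 282 in the DMZ (VMZ over cap -1.16 ± 0.16, adjusted p = 0.000498, and 0.113 without the block). *tcf7l1.L* was at 77 and 83.2 against 181 and 172 (-1.15 ± 0.17, adjusted p = 0.000917, and 0.0614 without the block). Of all models 1.61% were higher and 1.16% lower. Of 50 Wnt models 9 were higher (18%) and 2, the *tcf7l1* pair, lower (4%), with a median of 0.32. The higher calls were 8, 10, 6 and 7 without VMZ replicates 1 and 2 and cap replicates 1 and 2.

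Of 59 Cdx and Hox models, which mark posterior fates, 12 were higher in the VMZ (20.3%), 1 (*hoxa7.S*) lower (1.69%) and 46 not called. Of all models 1.61% were higher and 1.16% lower. *cdx2.S*, which like the other Cdx genes encodes a caudal homeodomain factor that acts upstream of posterior Hox genes, was at 80.8 and 43.2 CPM against 1.38 and 2.13 (5.06 ± 0.38, adjusted p = 1.79e-06). *cdx1.S* was at 247 and 83.4 against 10.7 and 9.4 (3.89 ± 0.32, adjusted p = 3.89e-06), and its DMZ level of 84.1 and 54.3 was below that of the VMZ (DMZ over VMZ -1.16 ± 0.28, adjusted p = 0.0213). *cdx4.S* was at 79.8 and 32.6 CPM against 5.55 and 4.32 and *cdx4.L* at 45.1 and 12.3 against 3.52 and 1.45, log2 fold changes of 3.39 ± 0.27 and 3.43 ± 0.32. All 4 models had VMZ replicate 1 above replicate 2, with no overlap with the cap. *hoxb6.S* had 0 counts in the cap and 3.11 and 0.833 CPM in the VMZ, at least 35.1-fold higher than the floor of 3 counts for the group. *hoxd1.S* was at 6.03 and 3.56 CPM against 0.0363 and 0.193 (5.24 ± 0.83, adjusted p = 0.00248, and 0.0585 without cap replicate 1). The median log2 fold change of the list was 1.44, or 1.297 after a change to the 11 models that had 0 counts in a tissue. These were set at their bound, or left out where the other tissue held no more than 3 counts. Without VMZ replicates 1 and 2 and cap replicates 1 and 2 the higher calls were 8, 13, 6 and 10. In the fit of only the 4 libraries 29 models of the list passed the filter on counts, and 10 were higher and 0 lower. The rest passed only with the DMZ libraries in the fit, so the shares of 59 include models barely detected in these tissues. *cdx1.S* was not called in the 4-library fit (adjusted p = 0.0915). With the 6 stage 11 libraries and without the block, 0 were lower as well.

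Of 50 FGF and MAPK models 20 were higher in the VMZ (40%), 2 (the *fgfr4* pair) lower (4%) and 28 not called. The higher ones included ligand genes and feedback regulators that FGF signalling induces. Of all models 1.61% were higher and 1.16% lower. *fgf8.L*, which encodes a ligand of the marginal zone, stood at 26.6 and 16.3 CPM in the VMZ and 1.45 and 1.93 in the cap (3.66 ± 0.28, adjusted p = 1.10e-06), and higher again in the DMZ at 53.3 and 48.6 (DMZ over VMZ 1.25 ± 0.24, adjusted p = 0.00439). *fgf20.L*, a further ligand gene, was at 7.57 and 3.74 against 0.29 and 0.322 (4.18 ± 0.52, adjusted p = 0.000205). One *fgf3.S* model (gene12376) was at 21.2 and 11.4 CPM in the VMZ, 3.74 and 1.8 in the cap and 11.1 and 6.14 in the DMZ, highest in the VMZ (DMZ over VMZ -0.91 ± 0.25, adjusted p = 0.0359). Among the receptors, *fgfr1.L* was higher at 73.3 and 59.5 CPM against 35.3 and 29.1 (1.05 ± 0.18, adjusted p = 0.0032, and 0.0568 without cap replicate 2). *fgfr4.S* was lower at 78.1 and 121 against 232 and 278 (-1.38 ± 0.14, adjusted p = 2.84e-05), with no overlap of the libraries. *fgfr4.L* was lower too, at 38.4 and 101 against 104 and 195 (-1.13 ± 0.27, adjusted p = 0.0384), but was not called without VMZ replicate 1 (adjusted p = 0.14), without cap replicate 2 (0.329) or without the block (0.16). Of the Sprouty genes, which encode feedback inhibitors of receptor tyrosine kinase signalling, *spry1.S* was at 47 and 26.4 CPM against 6.02 and 3.77 (2.90 ± 0.21, adjusted p = 6.57e-07). *spry2.S* was at 26.5 and 12.4 against 2.94 and 2.61 (2.76 ± 0.22, adjusted p = 2.01e-06). Every VMZ library was above every cap library for both. The list had a median of 0.68. The higher calls were 13, 23, 13 and 11 without VMZ replicates 1 and 2 and cap replicates 1 and 2, and 18 in the fit of only the 4 libraries.

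Ligands of the Nodal and Vg1 class were present in the VMZ at low to moderate levels. Of the Nodal pathway list 14.3% of models were higher and 0% lower, beside 1.61% and 1.16% of all models. *gdf3.S*, which encodes a TGF-beta family ligand, was at 166 and 39.2 CPM in the VMZ and 2.28 and 2.71 in the cap (5.43 ± 0.74, adjusted p = 0.00127, and 0.197 in the fit of only the 4 libraries). *nodal1.L* had 0 counts in the cap and 2.12 and 1.85 CPM in the VMZ, at least 38.4-fold higher against 3 counts over the group (adjusted p = 0.00821, and 0.066 without cap replicate 1 and 0.0919 without cap replicate 2). *nodal2.L* had 1 count in the cap and 2.83 and 1.49 CPM in the VMZ, a ratio of 120 (95% counting interval 21.3 to 4785; adjusted p = 0.0322). That call was lost without VMZ replicate 1 (0.0915), without cap replicate 1 (0.216) or 2 (0.179) and without the block (0.111). The feedback inhibitor gene *lefty.L* was at 16.9 and 9.32 CPM against 2.76 and 2.45 in the cap and 38.7 and 37.8 in the DMZ (VMZ over cap 2.29 ± 0.51, adjusted p = 0.0252). It was not called without VMZ replicate 1 (0.0866), cap replicate 1 (0.198) or cap replicate 2 (0.14). Of 35 Nodal pathway models 5 were higher (these and *lefty.S*) and 0 lower, with a median of 0.50, and the higher calls were 4, 5, 1 and 2 without VMZ replicates 1 and 2 and cap replicates 1 and 2.

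Of 35 endodermal and mesendodermal models 14 were higher in the VMZ (40%), 1 (*slc7a8.S*) lower (2.86%) and 20 not called. Of all models 1.61% were higher and 1.16% lower. *pnhd.L*, which encodes the secreted protein Pinhead, was at 60.0 and 26 CPM in the VMZ and 1.34 and 2.13 in the cap (4.46 ± 0.47, adjusted p = 7.48e-05) and lower in the DMZ, at 15.7 and 11.3 (DMZ over VMZ -1.60 ± 0.41, adjusted p = 0.0254). The homeobox gene *mixer.L*, which marks the endoderm, was at 119 and 42.9 CPM against 0.617 and 1.35 (6.65 ± 1.23, adjusted p = 0.0119). Every VMZ library exceeded every cap library, but the adjusted p was 0.137 without cap replicate 1, 0.11 without cap replicate 2 and 0.134 in the fit of only the 4 libraries. *mix1.S*, of the same homeobox family, was at 29.2 and 14.2 CPM against 0.109 and 2.06 (4.95 ± 0.88, adjusted p = 0.00915). Its call was lost without cap replicate 1 (0.0815), without the block (0.11) and in the fit of only the 4 libraries (0.38). *sox17a.L*, a defining regulator gene of endoderm, was at 16.7 and 5.4 against 0.617 and 1.38 and was not called (adjusted p = 0.216). The list had a median of 3.29, and the higher calls were 9, 17, 2 and 3 without VMZ replicates 1 and 2 and cap replicates 1 and 2. In the fit of only the 4 libraries 8 were higher and 4 lower, with the 6 stage 11 libraries 2 and 3, and without the block 6 and 0. Replicate 2 over replicate 1 had a median log2 ratio of -1.18 in the VMZ and 0.64 in the cap. The list shares 8 of its models with other lists, the *vegt* pair with the mesoderm list among them.

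Planar cell polarity is the non-canonical Wnt pathway that orients cell intercalation. Of its 51 models 6 were higher in the VMZ (11.8%), 1 lower (1.96%) and 44 not called, beside 1.61% higher and 1.16% lower of all models. *wnt11b.L*, the gene of a ligand of this pathway, was at 291 and 161 CPM in the VMZ and 13.2 and 11.5 in the cap (4.14 ± 0.19, adjusted p = 4.18e-09). *wnt5b.L*, a ligand gene of the same branch, was at 81.4 and 40.5 against 13.8 and 8.66 (2.41 ± 0.19, adjusted p = 1.79e-06), and *wnt5b.S* at 86.2 and 45.5 against 20.1 and 13.4 (1.94 ± 0.17, adjusted p = 4.44e-06). *prickle1.L*, which encodes a cytoplasmic core component, was at 230.0 and 158 CPM against 28.9 and 26.5 (2.79 ± 0.16, adjusted p = 4.78e-08) and *prickle1.S* at 142 and 69.2 against 13.7 and 13.1 (2.94 ± 0.27, adjusted p = 1.03e-05). All 5 models had their libraries well apart. In the DMZ *wnt11b.L* was at 313 and 243 CPM, *prickle1.L* at 258 and 197, *wnt5b.L* at 79.7 and 46.3 and *wnt5b.S* at 78.2 and 38.8. For these 4 models DMZ and VMZ were not called different (adjusted p = 0.224, 0.349, 0.864 and 0.563), which does not show that they are equal. The membrane core gene *vangl2.L* was at 183 and 143 against 127 and 106 and was not called (adjusted p = 0.0851), and the receptor gene *fzd7.L* was at 324 and 399.7 against 283 and 343 with overlapping libraries (adjusted p = 0.654), while the DMZ held 882 and 916. The 1 lower member, *vangl1.L*, was at 12.3 and 5.92 against 22 and 13.1 (-0.97 ± 0.22, adjusted p = 0.0255) and was not called without VMZ replicate 2 (0.269), without cap replicate 1 (0.244) or without the block (0.265). The list had a median of 0.17. Here the count changed little with the library left out, at 7, 7, 6 and 6 higher.

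Cell surface and matrix genes differed one by one. An *epha4.L* model (gene18257), which encodes an Eph receptor, was at 345 and 185 CPM against 49.9 and 37 (2.60 ± 0.25, adjusted p = 1.70e-05). The other 2 higher models of 22 were a further *epha4.L* model (gene35973) and the ephrin ligand gene *efna5.L*. *efna5.L* was at 2.95 and 6.33 CPM against 1.67 and 1.26 (1.59 ± 0.39, adjusted p = 0.0399). The 3 lower ones were the ephrin ligand models *efna1.S*, *efnb3.L* and *efna3.L* (log2 fold changes -1.01, -0.95 and -1.07), so ephrins were called in both directions. Without VMZ replicates 1 and 2 and cap replicates 1 and 2, 1, 0, 0 and 1 of the list were lower and 2, 3, 1 and 1 higher. *flrt3.S*, which encodes a leucine-rich transmembrane protein, was at 86.9 and 29.1 CPM against 4.57 and 5.99 (3.51 ± 0.54, adjusted p = 0.00244, and 0.0593 without cap replicate 1 and 0.22 in the fit of only the 4 libraries). A *has2.L* model (gene39058), for an enzyme that makes hyaluronan, was at 17.1 and 17.8 against 4.68 and 5.18 in the cap and 26.1 and 47.9 in the DMZ (VMZ over cap 1.84 ± 0.26, adjusted p = 0.000693, and 0.129 without the block). The metalloprotease gene *adamts1.S* was at 88.6 and 119 CPM against 28.4 and 31.2 (1.77 ± 0.28, adjusted p = 0.00206, and 0.0961 without the block). The basement membrane collagen gene *col4a5.L* was lower in the VMZ, at 1.57 and 1.87 against 8.12 and 8.66 (-2.27 ± 0.37, adjusted p = 0.00214). The protocadherin gene *pcdh9.L* was lower as well, at 1.11 and 0.765 CPM against 5.26 and 6.41 (-2.62 ± 0.41, adjusted p = 0.00141). E-cadherin, the epithelial cadherin, was at 278 and 155 CPM for *cdh1.S* in the VMZ and 437 and 255 in the cap, overlapping across replicate numbers though lower in the VMZ of each pair, and it was not called (adjusted p = 0.0727). It was called without VMZ replicate 1 (0.0293), with DESeq2 (0.0237), with upper quartile scaling (0.0432) and in the fit of only the 4 libraries (0.00461). The 3 lower matrix models were the *col4a5* pair and *itga6.L*. Of 101 matrix and integrin models 5 were higher and 3 lower, of 42 cadherins 2 and 2 (*pcdh8.2* higher in both copies, *pcdh9.L* and *cdh2.L* lower), and of 40 guidance genes 5 and 0, beside 1.61% higher and 1.16% lower of all models. The matrix shares were 4.95% and 2.97%, the cadherin share 4.76% each way and the guidance shares 12.5% and 0%. Of the Eph and ephrin models 13.6% were higher and 13.6% lower. Without VMZ replicates 1 and 2 and cap replicates 1 and 2, the matrix models had 2, 5, 2 and 3 higher and 4, 2, 2 and 2 lower, and the cadherins 0, 4, 0 and 0 higher and 2, 1, 1 and 1 lower. Without the block 0 matrix models were higher and 1 lower. The higher guidance calls were 5, 6, 0 and 2 without VMZ replicates 1 and 2 and cap replicates 1 and 2.

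Some genes known from the neural plate and the organizer were also higher in the VMZ than in the cap. *foxd4l1.1.L*, a forkhead gene of neural precursors, was at 38.8 and 22.1 CPM in the VMZ and 0.254 and 0.386 in the cap (6.51 ± 0.52, adjusted p = 3.89e-06), and at 117 and 117 in the DMZ (DMZ over VMZ 1.97 ± 0.36, adjusted p = 0.00438). The zinc finger genes *sall1.L* and *znf703.S* were at 344 and 212 against 69.6 and 67.5 (2.00 ± 0.19, adjusted p = 1.03e-05) and at 41.9 and 55.9 against 10.7 and 14 (1.98 ± 0.25, adjusted p = 0.000247). VMZ and cap libraries were apart for all 3. Of the neural plate genes *sox2* and *sox3*, *sox3.S* was called higher (adjusted p = 0.0333). *sox3.L* (0.139) and both *sox2.L* models (0.485 and 0.0793) were not called. *foxa4.L*, an organizer forkhead gene, was at 45.5 and 10.8 CPM against 0.689 and 0.451 (5.62 ± 0.62, adjusted p = 0.000204, and 0.195 with the 6 stage 11 libraries), well under the 157 and 242 of the DMZ. *chrd.L*, which encodes the BMP antagonist Chordin and defines the organizer, overlapped between VMZ and cap at 1.66 and 0.563 and 1.16 and 1.55 CPM (adjusted p = 0.847), against 289 and 483 in the DMZ. *hesx1.L*, an anterior homeobox gene, was lower in the VMZ at 0.707 and 0.945 CPM against 6.17 and 10.9 (-3.36 ± 0.64, adjusted p = 0.0124). Its call was lost without VMZ replicate 2 (0.171), cap replicate 1 (0.0626) or cap replicate 2 (0.0543) and without the block (0.0716). Of 50 neural plate and pluripotency models 15 were higher and 1 (*irx2.L*) lower, with a median of 0.57, and the higher calls were 12, 15, 9 and 7 without VMZ replicates 1 and 2 and cap replicates 1 and 2. The neural plate and pluripotency shares were 30% higher and 2% lower, beside 1.61% and 1.16% of all models. Of 39 organizer models 5 were higher (12.8%) and 3 lower (7.69%), with a median of -0.09. The higher ones were the *lhx1* and *foxa4* pairs and *frzb.S*, and the lower ones *hesx1.L*, *pkdcc.1.L* and *sfrp2.S*. Without VMZ replicates 1 and 2 and cap replicates 1 and 2, 4, 7, 4 and 6 organizer models were higher and 4, 0, 0 and 1 lower.

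Among the 12 largest rises and 12 largest falls taken by the rule for named genes, the log2 fold changes ran from 6.29 to 8.23 and from -2.31 to -3.77. The top rises were a *xenf* model (gene38751, 8.23 ± 1.31) and *frzb.S* (8.02 ± 1.81), with 2 and 5 and 2 and 4 counts in the cap libraries. Without the block they were 7.32 and 6.61 and not called (edgeR adjusted p = 0.0857 and 0.253). With the 6 stage 11 libraries neither was called (0.207 and 0.358). *vav2.L*, which encodes a guanine nucleotide exchange factor, was at 2.74 and 3.49 CPM in the VMZ and 34.5 and 32.1 in the cap (-3.40 ± 0.27, adjusted p = 1.96e-06), and the DMZ held 25.8 and 17.9. *xepsin.L*, which encodes an epidermal serine protease, was at 10.9 and 11 against 139.8 and 92.5 (-3.39 ± 0.49, adjusted p = 0.00189), with 113 and 64 in the DMZ. For both, the VMZ was below the cap and the DMZ in every library. *crx.S*, a homeobox gene of the Otx group, stood at 9.44 and 9.52 CPM in the VMZ, 48.7 and 45.4 in the cap and 152 and 195 in the DMZ (VMZ over cap -2.31 ± 0.33, adjusted p = 0.000962). *celf3.S*, which encodes an RNA-binding protein, was at 2.37 and 1.19 against 9.54 and 9.6 (-2.48 ± 0.35, adjusted p = 0.000753), and *stard13.L*, which encodes a GTPase-activating protein, at 19.9 and 41.7 against 124 and 182 (-2.32 ± 0.29, adjusted p = 0.000247, and 0.164 with the 6 stage 11 libraries). *lfng.L*, named from the Notch and Hes list and not among these 12 falls, encodes the glycosyltransferase Lunatic fringe that tunes Notch. It was at 25.1 and 28.5 CPM against 108 and 99.5 (-1.94 ± 0.20, adjusted p = 2.71e-05). Lack of overlap was required by the rule for the 12 rises and 12 falls, so it is no support for them. For *lfng.L* the tissues did not overlap either. Of 31349 tested models, 4646 had both VMZ libraries below both cap libraries. *cfh.L*, which encodes the complement regulator factor H, was at 10.8 and 1.87 against 119 and 42.7 and had the largest fall by the rule for named genes (-3.77 ± 0.68, adjusted p = 0.01). It was not called without VMZ replicate 2 (0.0816) or without cap replicate 1 (0.0746).

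Epidermal regulators were mostly at higher levels in the cap libraries, and few passed the test. Of all models 1.61% were higher and 1.16% lower. Of 50 ectodermal transcription factor models 3 were higher and 3 lower (6% each way) and 44 not called, with a median of -0.71. The lower ones were *klf4.L*, *dlx6.S* and *klf17.L*. *klf4.L* (gene3847), which encodes a Krüppel-like factor of epidermal differentiation, was at 70.4 and 77.6 CPM against 192 and 183 (-1.34 ± 0.21, adjusted p = 0.0013). *znf750.L*, known in mammals as an epidermal differentiation factor, was at 57.2 and 40.5 CPM against 187 and 109 (-1.59 ± 0.20, adjusted p = 0.000247). *foxi4.2.L*, a forkhead gene of the epidermis, was at 37.3 and 63 CPM in the VMZ and 432 and 436 in the cap, the cap libraries almost equal and far above the others (log2 fold change -3.08 ± 1.07). Its adjusted p of 0.171 did not pass the threshold. It was called with DESeq2 (0.0388), in the fit of only the 4 libraries (0.000837) and with the 6 stage 11 libraries (0.00171). The fits of 4 and 6 libraries keep few residual degrees of freedom, so their smaller p-values are not better evidence. *tfap2a.S*, which encodes the AP-2 factor of non-neural ectoderm, was at 139.6 and 186 against 286 and 331 (adjusted p = 0.471, and 0.00131 in the fit of only the 4 libraries). *grhl3.L*, which encodes a Grainyhead factor, was at 235 and 296 against 423 and 454 (adjusted p = 0.636, and 0.00394 in that fit). The libraries did not overlap for any of the 3. Lack of overlap was common, since of 31349 tested models 5791 had both VMZ libraries above the cap and 4646 had both below. *krt12.S*, an epidermal keratin gene, was at 302 and 101 CPM against 789 and 232, with VMZ replicate 1 above cap replicate 2 but the VMZ lower within each number (adjusted p = 0.259, and 0.000354 in that fit).

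In the fit of only the 4 libraries 3 of 47 ectodermal regulators were higher and 29 lower, and 3 and 16 with the 6 stage 11 libraries. DESeq2 on all 24 gave 3 and 7. Of 62 keratin and junction models 0 were higher and 1 (1.61%) lower (*cldn4.L*, -0.58 ± 0.12), with a median of -0.38. Those shares lay near the 1.61% higher and 1.16% lower of all models. The 4-library fit gave 1 and 21 of 55, and DESeq2 1 and 7. *cldn4.L*, which encodes a tight junction claudin, was not called without VMZ replicate 2 (adjusted p = 0.181), without cap replicate 1 (0.082) or 2 (0.0854), or without the block (0.459). The higher ectodermal regulators included *tp63.L* and *ets2.S*. *tp63.L*, a basal keratinocyte factor gene, was at 3.38 and 0.698 CPM in the VMZ and 0.326 and 0.0966 in the cap (3.15 ± 0.64, adjusted p = 0.013, and 0.112 without VMZ replicate 1, 0.0853 without cap replicate 1, 0.122 without cap replicate 2 and 0.0618 without the block). Genes of ciliated cells, ionocytes and secretory cells numbered 31, with 0 higher and 1 lower (3.23%). The lower one was *tph1.S*, for the enzyme that starts serotonin synthesis, at 1.17 and 2.21 CPM against 10.8 and 17 (-3.08 ± 0.73, adjusted p = 0.0336), and it was not called when any of the 4 libraries was left out (adjusted p = 0.102, 0.241, 0.166 and 0.0938 without VMZ replicates 1 and 2 and cap replicates 1 and 2).

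**Figure D4:**
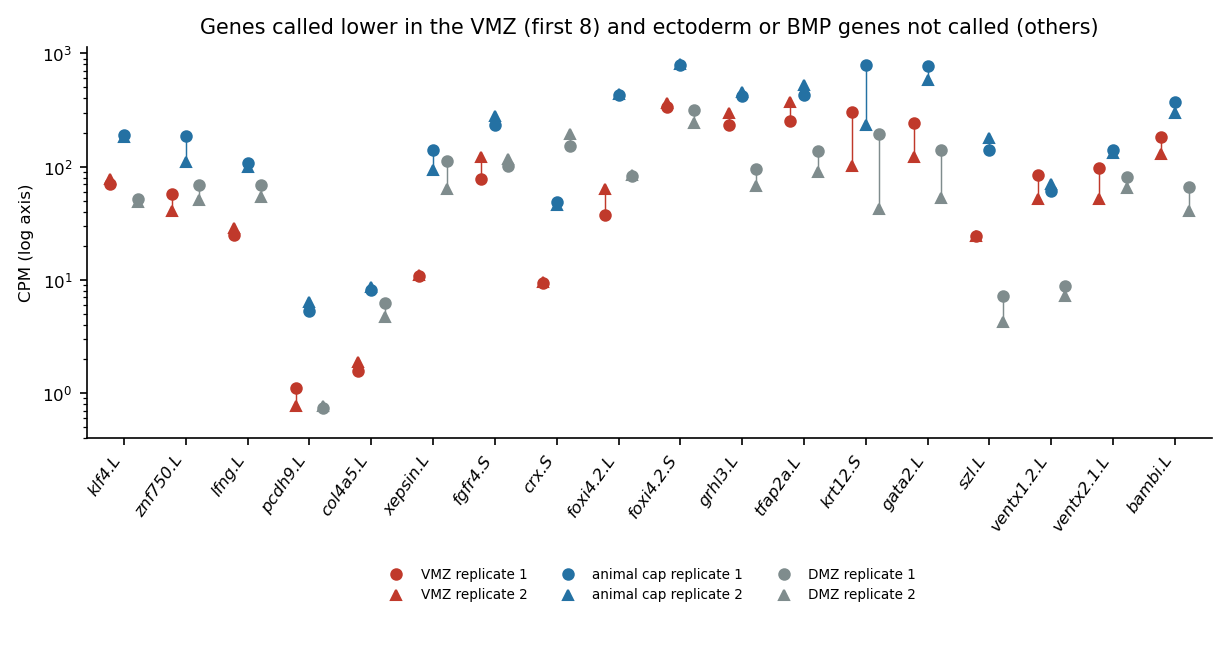
CPM on a log axis of 8 genes called lower in the VMZ (*klf4.L* to *crx.S*) and 10 ectoderm or BMP genes not called in the fit of 24 libraries (*foxi4.2.L* to *bambi.L*), with VMZ in red, animal cap in blue, DMZ in grey, circles for replicate 1 and triangles for replicate 2. *foxi4.2.L* stands at 432 and 436 CPM in the cap and 37.3 and 63 in the VMZ, whereas *ventx1.2.L* overlaps between them.

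BMP and ventral genes, many of which ventral mesoderm and epidermis share, were with 1 exception not called higher in the VMZ than in the cap. *bmp4.L*, which encodes the ligand, overlapped at 89.4 and 66.9 CPM in the VMZ and 128 and 77.5 in the cap (adjusted p = 0.671). The ventral homeobox gene *ventx1.2.L* overlapped at 85.1 and 51.8 against 60.4 and 69.6 (adjusted p = 1), while the DMZ held 8.75 and 7.17. Its homeolog *ventx1.2.S* was at 87.2 and 57.8 CPM in the VMZ and 35.8 and 40.1 in the cap, with both VMZ libraries above both cap libraries, and was not called (0.87 ± 0.89, adjusted p = 0.731). *ventx2.1.L* was at 97.1 and 52 against 141 and 132 (adjusted p = 0.332). *szl.L*, which encodes Sizzled, an inhibitor of Chordin-cleaving proteases, was at 24.6 and 24.5 CPM in the VMZ, 141 and 178 in the cap and 7.19 and 4.22 in the DMZ, so the cap libraries were several times above the VMZ ones (log2 fold change -2.72 ± 1.44). It was not called (adjusted p = 0.416), but was in the fit of only the 4 libraries (0.000139), which keeps few residual degrees of freedom. *gata2.S*, a GATA factor gene of ventral mesoderm and epidermis, was at 132 and 72.2 against 576 and 424 (adjusted p = 0.217, and 0.000214 in that fit). *tll1.S*, which encodes a protease of the Tolloid group, was the 1 higher member, at 61.4 and 28.1 CPM against 16.8 and 10.3 in the cap and 10.5 and 9.6 in the DMZ (VMZ over cap 1.70 ± 0.34, adjusted p = 0.013). Its call was lost without VMZ replicate 1 (0.0845), cap replicate 1 (0.0757) or cap replicate 2 (0.131) and without the block (0.0661). Of 55 BMP and ventral models 1 was higher and 1 (*smad9.S*) lower, with a median of -0.18. These shares, 1.82% each way, lay near the 1.61% higher and 1.16% lower of all models. The fit of only the 4 libraries gave 4 and 18, and the one of the 6 stage 11 libraries 3 and 13. Of 25 blood and endothelium models 0 were higher and 1 lower (4%). The lower one was *runx1.L*, a blood regulator gene, at 4.28 and 2.61 CPM against 23 and 7.73 (-2.11 ± 0.39, adjusted p = 0.0063, and 0.0663 without VMZ replicate 2 and 0.152 without cap replicate 1).

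The remaining lists are given beside the 1.61% higher and 1.16% lower of all models. Of 40 Notch and Hes models 2 were higher (*hes7.2.L* and *hes6.1.L*) and 2 lower (*lfng.L* and *hes4.L*), 5% each way. *hes7.2.L*, a Hes repressor gene, was at 33.6 and 8.49 CPM in the VMZ and 1.96 and 1.38 in the cap (3.64 ± 0.53, adjusted p = 0.00114), the opposite direction to *lfng.L* of the same list. Of 30 retinoic acid models 1 was higher (*cyp26a1.L*) and 1 lower (*rarg.L*), and of 28 Hedgehog models 1 (*cdon.S*) and 1 (*gli2.S*). *gli2.S*, which encodes a Hedgehog transducer, was at 5.32 and 4.73 CPM in the VMZ, 17.8 and 11.1 in the cap and 37.8 and 29.3 in the DMZ (VMZ over cap -1.50 ± 0.28, adjusted p = 0.00705, and 0.104 without cap replicate 1). Of 49 immediate early and stress models 6 were higher (12.2%) and 1 (*gadd45a.L*) lower (2.04%). *fos.S*, an immediate early gene, was at 126 and 101 CPM in the VMZ, 34.3 and 14.7 in the cap and 34.3 and 27.5 in the DMZ, so that the VMZ was above both other tissues (VMZ over cap 2.22 ± 0.32, adjusted p = 0.000892, and DMZ over VMZ -1.87 ± 0.32, adjusted p = 0.00226). *fosl1.L* was at 35.7 and 27.4 against 5.48 and 2.32 (2.98 ± 0.56, adjusted p = 0.0079, and 0.0832 without cap replicate 2). The higher calls of this list were 3, 5, 6 and 1 without VMZ replicates 1 and 2 and cap replicates 1 and 2. Of 68 cell cycle models 3 were higher (*gmnn.S*, *ccna1.S* and *ccnb1.2.L*) and 5 lower (the *cdk1* pair, *aurka.L*, *pcna.L* and *mcm5.S*), and the lower calls were 5, 0, 0 and 1 without VMZ replicates 1 and 2 and cap replicates 1 and 2. Of 41 maternal models 3 were higher (*wnt11b.L*, *plin2.S* and *ccna1.S*) and 0 lower, with 7, 1, 2 and 1 higher without those libraries. Of 126 respiratory chain models 0 were higher and 1 lower (*ndufb2.S*), and of 11 germ plasm models 0 and 0.

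Some genes outside these lists were chosen after their values were seen. *ngfr.S*, which encodes the low-affinity neurotrophin receptor, was at 118 and 66.1 CPM in the VMZ and 18.6 and 14.2 in the cap (2.46 ± 0.16, adjusted p = 1.98e-07). *ednra.S*, which encodes an endothelin receptor, was at 10.4 and 11.1 against 1.2 and 1.51, and at 3.56 and 3.33 in the DMZ (VMZ over cap 2.99 ± 0.24, adjusted p = 2.07e-06, and DMZ over VMZ -1.64 ± 0.23, adjusted p = 0.000469). *cml*, taken by the rule for large rises, was at 27.2 and 5.79 CPM against 0.0725 and 0.0966 (7.33 ± 0.76, adjusted p = 6.72e-05). The potassium channel gene *kcnk6.L* had 499 counts in the VMZ and 2 in the cap, a ratio of 190.1 (95% counting interval 52.4 to 1574). *rgs16.S*, which encodes a regulator of G-protein signalling, had 0 counts in the cap and 1.81 and 2.57 CPM in the VMZ, at least 43.9-fold higher against 3 counts over the group. Its homeolog sum did not pass the test (adjusted p = 0.362 with L and S counts summed).

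Where both homeologs of a gene were called, they differed in the same direction. Among 5024 pairs of L and S models, both were higher in 55, both lower in 17 and opposite in 0. Only the L copy was called higher in 78 pairs and only the S copy in 67, which does not by itself show that the copies differ. The L to S ratio itself was tested with limma, and 156 pairs were called, 72 with a ratio higher in the VMZ and 84 lower (729 at an unadjusted p under 0.05). Without the block 68 were called, and without VMZ replicate 2 or cap replicate 1, 95 and 82. *vav2* had the L copy at 2.74 and 3.49 CPM against 34.5 and 32.1 in the cap and the S copy at 31.0 and 27.3 against 34.7 and 30.6, a change of the log2 ratio of -3.26 ± 0.28 (limma adjusted p = 3.79e-06). Its fall thus lay in the L copy. *cdx2* was higher in the VMZ in both copies, by log2 fold changes of 3.03 in L and 5.06 in S (ratio change -2.08 ± 0.19, limma adjusted p = 6.54e-06). *foxd4l1.1* was likewise higher in both, by 6.51 in L and 3.60 in S (2.88 ± 0.31, limma adjusted p = 4.88e-05). *gpr143*, which encodes a pigment cell receptor, had an L copy at 70.6 and 50.1 CPM against 103 and 80.1 and an S copy at 1.66 and 3.53 against 0.29 and 0.837 (ratio change -2.86 ± 0.30, limma adjusted p = 3.59e-05).

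**Figure D5:**
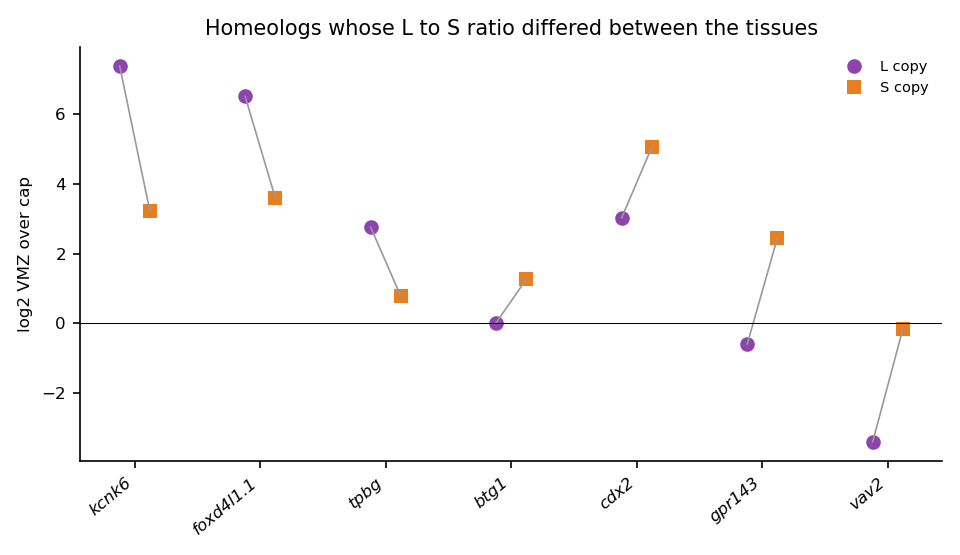
Log2 fold change of VMZ over cap in the L copy (circles) and the S copy (squares) of some of the pairs called for a change in the L to S ratio, ordered by the change of the ratio. The copies of *vav2* stand at -3.40 and -0.16, and those of *cdx2* both lie above 0.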

How the data were processed

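RNA-seq counts of 31694 gene models in 24 libraries were used as the authors deposited them, raw and unnormalised. Per the submitters' processing notes, Trim Galore, kallisto and DESeq2 were used. The sources used here do not give tool versions, the genome build or the strand setting. Whether genes were told apart from antisense partners is therefore not known. The authors' deposited table supplied the gene names and nothing else, and 844 models share a name with another.

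The analysis used edgeR 4.0.16 and limma 3.58.1 (R 4.3.3). Models were kept by filterByExpr (minimum count 10, minimum total 15) and scaled by TMM. A robust quasi-likelihood model with 12 group terms and the replicate number as a block was fitted to all 24 libraries (11 residual degrees of freedom, biological coefficient of variation 0.21). Calls have a Benjamini-Hochberg adjusted p under 0.05. The SE is the log2 fold change over the square root of F. Tests are two-sided. L to S ratios used limma on log2 counts plus 0.5. The script was tested on simulated counts.

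The numbers paired the samples: replicate deviations correlated across gene models at 0.64 between VMZ and cap and above 0.1 in all 66 pairs of groups (lowest 0.24). The labels do not state it.

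The 27 lists and the members were chosen with earlier results of these data known. The rule for named genes takes the 12 largest called rises and falls with a symbol, at least 5 CPM and no overlap, the 4 (or fewer) called members of each list with smallest p, anchor genes whatever their result, and 4 L and S pairs of smallest p in each direction. Not all of these are named, and some are not reported here. Outside it, and chosen after their values were seen, are *snai1.L*, *hoxb6.S*, the lower *tcf7l1*, *fgfr4.L* and ephrin models, *fgf20.L*, *fgf3.S*, *fgfr1.L*, *prickle1.S*, *vangl1.L*, *vangl2.L*, *fzd7.L*, *nodal2.L*, *znf750.L* and members named only to complete a count. Promoter sequences were not analysed here.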

Additional observations from a re-analysis of the deposited data

How the results depend on the processing

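Against the 867 calls (504 higher, 363 lower), no replicate block gave 324 (226 and 98), DESeq2 1.42.0 with the block 1648 (940 and 708, with 6078 adjusted p-values not given), only the 4 VMZ and cap libraries 1686 (766 and 920), the 6 stage 11 libraries 987 (412 and 575), and glmTreat against a fold of 1.5, a stricter hypothesis, 276 (199 and 77). Of these differences the cause was not tested. Leaving out 1 library gave 308 to 1166 calls (193 to 767 higher, 112 to 399 lower). The L to S ratio gave 68 pairs against 156 with no block and 82 to 165 without 1 library. RLE and upper quartile scaling, no filter or at least 1 CPM in 4 libraries, no robust step and L and S counts summed kept the total between 650 and 919, though upper quartile scaling turned the split to 390 and 511. Of the 867 calls, 676 were shared with the 4-library fit (78.0% of these and 40.1% of its calls), 830 with DESeq2 and 324 with the fit without the block, each in the same direction. No named gene called under either setting changed direction. With 2 libraries a tissue, called genes near 0 counts are limited by depth, and their fitted folds are not bounds.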

Other observations

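Some complement genes called lower in the VMZ than in the cap were picked out after their values were seen, and complement genes were not counted as a list. *cfb.L*, which encodes complement factor B, stood at 27.1 and 22.3 CPM in the VMZ, 92.4 and 76.1 in the cap and 136 and 88.6 in the DMZ, so that the VMZ was below both other tissues in every library (VMZ over cap -1.77 ± 0.24, edgeR adjusted p = 0.000432, and DMZ over VMZ 2.17 ± 0.24, adjusted p = 5.80e-05). *c9.L*, for the pore-forming component, was at 87.9 and 45.9 against 208 and 194 (-1.69 ± 0.26, adjusted p = 0.00189, and 0.224 without the block). *c3.L*, for the central component, was at 227 and 82.7 against 599 and 212, lower in the VMZ within each replicate number but overlapping across them (-1.38 ± 0.24, adjusted p = 0.00485). Its adjusted p was 0.0536 without VMZ replicate 2, 0.066 without cap replicate 1 and 0.628 without the block. The regulator gene *cfp.L*, for properdin, was at 9.2 and 12.2 against 20.4 and 28.1 (-1.18 ± 0.27, adjusted p = 0.0252), and it was not called when any of the 4 libraries was left out (adjusted p between 0.0762 and 0.161).

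*sostdc1.L*, which encodes a secreted antagonist of BMP and Wnt signals and was likewise picked after its values were seen, had 120 counts in the VMZ and 3 in the cap, a ratio of 30.5 (95% counting interval 10.2 to 149.9, counting error only). It stood at 2.21 and 1.08 CPM in the VMZ and 0.237 and 0.512 in the DMZ (DMZ over VMZ -2.33 ± 0.68, edgeR adjusted p = 0.0416).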
